A study of Marchantia polymorpha with 18 samples.

Results

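The class III peroxidase genes MpPOD61 (Mp5g02600), MpPOD71 (Mp5g04290), MpPOD92 (Mp5g10750), MpPOD94 (Mp5g12120) and MpPOD99 (Mp5g13710) were followed in 18 RNA-seq libraries of the liverwort Marchantia polymorpha. They are 5 of the 164 genes that carry an MpPOD symbol among 20574 listed genes, and all 5 passed the filter on low values that left 13220 genes and 121 peroxidases. The 5 were chosen by their measured fall after wounding in these same libraries, so the sizes of those falls are a description and carry no test here. Their identifiers place all 5 on chromosome 5, and coordinates are not printed because no source used here names the genome build behind the identifiers.

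The groups were wounded and mock-treated plants of Mpcoi1, of Mpdes6fad5 and of Tak-1, with 3 libraries each. Tak-1 is the male wild-type accession, Mpcoi1 is a mutant of the jasmonate receptor gene and Mpdes6fad5 is a double mutant of fatty acid desaturase genes; alleles, further agents and the sex of the mutants are not stated in the labels. Per the labels, plants had grown for 3 weeks on half-strength Gamborg medium, leaflets were wounded with tweezers, each library came from an independent replicate of 6 to 8 pooled plants, and the tissue ground was apical fragments without gemma cups. The treatment label gives 2 h and the protocol gives 90 min to freezing, and both are left standing.

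Class III peroxidases are secreted haem enzymes of plants. They use hydrogen peroxide to oxidise phenolic compounds and can thereby cross-link cell wall polymers, polymerise phenolics, or produce and consume reactive oxygen in the wall. Land plants carry them as large families in which many genes lie in tandem, and in flowering plants individual members differ in the tissue and stimulus in which they are expressed. No function of any of the 5 genes in Marchantia is given by the files. Wounding in plants engages the jasmonate pathway, in which lipid-derived signals made from polyunsaturated fatty acids are perceived by COI1 with JAZ repressors.

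Libraries held 19382332 to 26303510 reads in genes, and 3 reads, the upper limit that a count of 0 allows, corresponded to 0.107 to 0.158 CPM, reads scaled to library size. Replicate 3 of wounded Tak-1 was the least like its group, with a mean correlation of 0.987 with the other 2. MpCOI1 was at 25.1 ± 1.76 CPM in mock Mpcoi1 and 87.6 ± 3.41 CPM in mock Tak-1 (SD, n = 3 each). MpDES6 was at 46.3 ± 2.50 CPM in mock Mpdes6fad5 and 68.4 ± 7.42 CPM in mock Tak-1, and MpFAD5 at 284.7 ± 28.7 CPM in mock Mpdes6fad5 and 466.6 ± 38.5 CPM in mock Tak-1 (SD, n = 3 each). The photosynthetic gene MpRBCS was present in all 18 libraries, at 109 to 271 CPM.

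MpPOD61 was a weakly expressed peroxidase whose level after wounding came down to a few reads in every genotype. In Mpcoi1, MpPOD61 had 0.384, 0.398 and 0.267 CPM in wounded plants, against 6.84, 6.70 and 4.50 CPM in mock plants. In Mpdes6fad5, MpPOD61 had 0.796, 0.788 and 0.356 CPM in wounded plants, against 10.6, 4.95 and 3.48 CPM in mock plants. In Tak-1, MpPOD61 had 0.949, 0.604 and 0.264 CPM in wounded plants, against 6.26, 6.90 and 4.69 CPM in mock plants. All 9 wounded libraries lay below all 9 mock libraries, and within each treatment the genotypes overlapped. The wounded values rest on 6 to 18 reads per library, and all of them were above the limit that a count of 0 allows. In bulk tissue of this kind, fewer cells that express a gene and less RNA per cell cannot be told apart, and this holds for every level below.

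MpPOD71 fell alongside it but was set apart by its level in Mpdes6fad5. In Mpcoi1, MpPOD71 had 0.896, 0.973 and 0.890 CPM in wounded plants, against 8.46, 8.00 and 7.13 CPM in mock plants. In Mpdes6fad5, MpPOD71 had 3.19, 3.71 and 2.75 CPM in wounded plants, against 38.3, 23.9 and 22.4 CPM in mock plants. In Tak-1, MpPOD71 had 1.11, 1.77 and 0.880 CPM in wounded plants, against 9.31, 7.70 and 7.30 CPM in mock plants. The Mpdes6fad5 libraries were the highest of each treatment without overlap, and wounded Mpdes6fad5 still lay below the mock plants of the other genotypes.

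MpPOD92 shared the high mock level of Mpdes6fad5 but differed from MpPOD71 in the wounded plants. In Mpcoi1, MpPOD92 had 1.54, 1.99 and 1.65 CPM in wounded plants, against 14.9, 15.6 and 13.3 CPM in mock plants. In Mpdes6fad5, MpPOD92 had 2.92, 3.80 and 3.56 CPM in wounded plants, against 41.6, 29.3 and 24.01 CPM in mock plants. In Tak-1, MpPOD92 had 5.69, 3.58 and 3.21 CPM in wounded plants, against 15.7, 15.4 and 12.7 CPM in mock plants. Among wounded plants Mpcoi1 was lowest without overlap, and Mpdes6fad5 overlapped with Tak-1. Mock Mpdes6fad5 replicate 1 held the highest library value of MpPOD61, MpPOD71 and MpPOD92.

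MpPOD94 and MpPOD99 differed from MpPOD71 and MpPOD92 in the place of Mpdes6fad5 among mock plants, which was lowest instead of highest. In Mpcoi1, MpPOD94 had 1.02, 0.973 and 0.489 CPM in wounded plants, against 7.06, 6.70 and 4.50 CPM in mock plants. In Mpdes6fad5, MpPOD94 had 0.310, 0.324 and 1.27 CPM in wounded plants, against 4.002, 3.03 and 3.15 CPM in mock plants. In Tak-1, MpPOD94 had 1.21, 0.837 and 1.80 CPM in wounded plants, against 9.52, 6.46 and 9.52 CPM in mock plants. The wounded genotypes of MpPOD94 overlapped, while mock Mpdes6fad5 lay below both other mock groups.

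For MpPOD99 the wounded plants of the 3 genotypes were close together. In Mpcoi1, MpPOD99 had 1.83, 1.95 and 1.82 CPM in wounded plants, against 9.18, 9.18 and 11.8 CPM in mock plants. In Mpdes6fad5, MpPOD99 had 1.64, 1.72 and 1.88 CPM in wounded plants, against 5.55, 7.23 and 7.39 CPM in mock plants. In Tak-1, MpPOD99 had 1.32, 1.21 and 2.90 CPM in wounded plants, against 16.9, 11.0 and 12.2 CPM in mock plants. The highest wounded value came from wounded Tak-1 replicate 3, and mock Mpdes6fad5 again lay below the other mock groups without overlap.

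**Figure D1:**
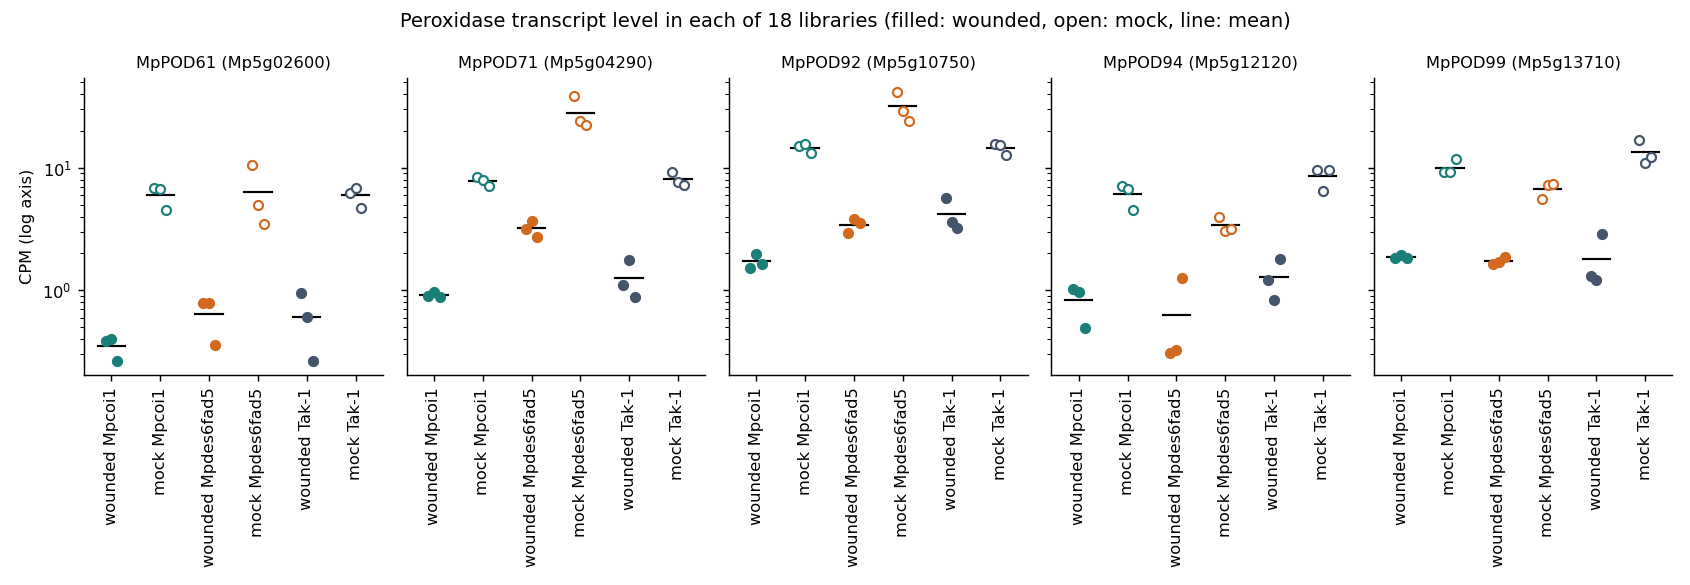
CPM on a log axis in each of the 18 libraries, 1 panel per gene, with wounded (filled) beside mock (open) plants of Mpcoi1, Mpdes6fad5 and Tak-1; lines are group means. In every panel and genotype the 3 wounded libraries lie below the 3 mock libraries, and mock Mpdes6fad5 is highest for MpPOD71 and MpPOD92 and lowest for MpPOD94 and MpPOD99.

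The wound responses are given as the difference of log2(CPM + 1), wounded minus mock, with the standard error from a limma model of all 18 libraries. The added 1 CPM makes these differences smaller than the ratios of CPM. MpPOD61 changed by -2.36 in Mpcoi1, -2.05 in Mpdes6fad5 and -2.12 in Tak-1, each ± 0.26. Its wounded mean was 5.81% of the mock mean in Mpcoi1, 10.2% in Mpdes6fad5 and 10.2% in Tak-1. In Mpdes6fad5 this was 15.3% without mock replicate 1, against 12.9% for MpPOD92 without the same library. With reads this few the size of the difference depended on the scale: in Mpcoi1 it was -4.02 with voom on the recovered reads and -1.03 with 5 CPM added.

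MpPOD71 changed by -2.20 in Mpcoi1, -2.76 in Mpdes6fad5 and -2.03 in Tak-1, each ± 0.17. Its wounded means were 11.7%, 11.4% and 15.4% of the mock means of Mpcoi1, Mpdes6fad5 and Tak-1. MpPOD92 changed by -2.52 in Mpcoi1, -2.85 in Mpdes6fad5 and -1.62 in Tak-1, each ± 0.18. Its wounded means were 11.8%, 10.8% and 28.5% of the mock means in the same order, so that Tak-1 retained the most of this transcript. MpPOD94 changed by -1.95 in Mpcoi1, -1.47 in Mpdes6fad5 and -2.06 in Tak-1, each ± 0.22, with 13.6%, 18.7% and 15.1% left. The share in Mpdes6fad5 rests on wounded replicate 3 and was 9.34% without it, and the change there was -2.71 with voom and -0.58 with 5 CPM added. MpPOD99 changed by -1.94 in Mpcoi1, -1.48 in Mpdes6fad5 and -2.38 in Tak-1, each ± 0.19, with 18.6%, 25.9% and 13.5% left. In each genotype and for each gene the wounded and mock libraries did not overlap. The share of all genes without overlap was not counted for any comparison here. By another measure, an adjusted p under 0.05 by limma, 28.5% of all tested genes were lower in Mpcoi1, 28.9% in Mpdes6fad5 and 30.6% in Tak-1. Nothing is read from these values about the 5 genes, because the falls chose the genes.

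Summed over the 5 genes, the level was 5.69 ± 0.582 CPM in wounded and 44.6 ± 2.99 CPM in mock Mpcoi1 (SD, n = 3 each). It was 9.67 ± 0.755 CPM in wounded and 76.3 ± 20.9 CPM in mock Mpdes6fad5, and 9.11 ± 1.14 CPM in wounded and 50.5 ± 6.16 CPM in mock Tak-1 (SD, n = 3 each). The 5 genes were a small portion of the peroxidase reads of the plant. In Mpcoi1 they held 0.251% of the reads of all listed peroxidases after wounding, against 1.46% in mock plants. In Mpdes6fad5 they held 0.365% after wounding, against 2.12% in mock plants, and in Tak-1 0.308% after wounding, against 1.57% in mock plants.

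Within the family of 121 tested peroxidases, 4 of the 5 genes were the 4 lowest wound responses in Tak-1, and MpPOD92 was at place 12. In Mpcoi1 it was MpPOD92 that took place 1, with MpPOD61 at 2, MpPOD71 at 5, MpPOD94 at 8 and MpPOD99 at 9. In Mpdes6fad5 MpPOD92 and MpPOD71 were at places 4 and 6 and MpPOD61 at 16, while MpPOD99 and MpPOD94 were at 33 and 34. Just outside the 4 lowest in Tak-1 were MpPOD90 at -2.01, MpPOD105 at -1.97, MpPOD91 at -1.95, MpPOD96 at -1.83 and MpPOD119 at -1.80, next to MpPOD71 at -2.03 just inside. The gap between MpPOD71 and MpPOD90 was smaller than their standard errors of 0.17 each. MpPOD92, at -1.62, ranked behind all of these unchosen genes, so chosen and unchosen genes were interleaved in Tak-1.

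**Figure D2:**
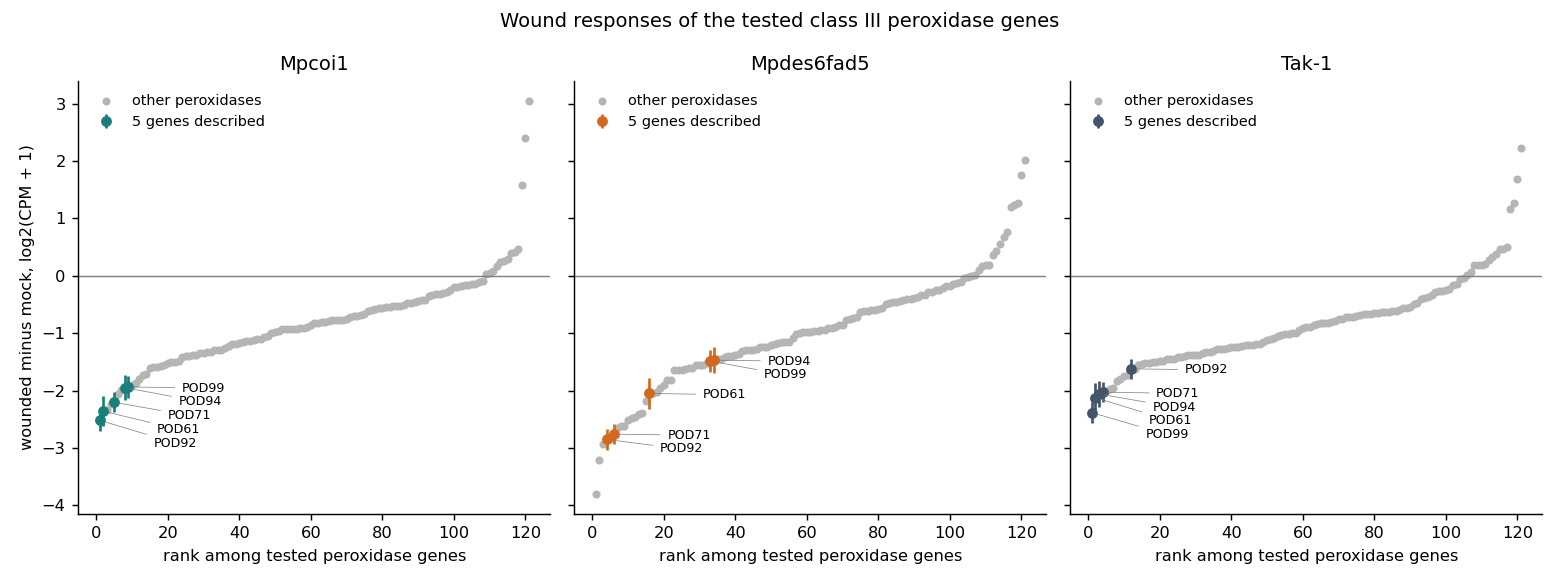
Wound response, wounded minus mock on the log2(CPM + 1) scale, of the 121 tested class III peroxidases ranked from lowest to highest in Mpcoi1, Mpdes6fad5 and Tak-1, with the 5 genes in colour and their standard errors as bars. The 5 genes are among the 12 lowest in Mpcoi1 and in Tak-1, but MpPOD94 and MpPOD99 are at places 34 and 33 in Mpdes6fad5.

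Differences between genotypes were tested within a treatment, by limma with Benjamini-Hochberg adjustment over all 13220 tested genes at an adjusted p under 0.05. These comparisons did not choose the genes, though they use the same libraries. A choice by falls can favour high mock and low wounded values. The adjusted p values of the 5 genes are therefore not free of that choice. None of the 5 passed between mock Mpcoi1 and mock Tak-1, where 6.66% of all genes passed. At an unadjusted p under 0.05 the count was also 0, as it was with voom. The estimates were 0.01 ± 0.26 for MpPOD61, -0.04 ± 0.17 for MpPOD71 and 0.00 ± 0.18 for MpPOD92. MpPOD94 was at -0.42 (95% interval -0.90 to 0.05, adjusted p = 0.281 by limma) and MpPOD99 at -0.37 (-0.76 to 0.03, adjusted p = 0.262 by limma), so that a moderately lower level in Mpcoi1 is within the intervals.

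Mock Mpdes6fad5 differed from mock Tak-1 in 4 of the 5 genes, in opposite directions, where 37.9% of all genes passed. MpPOD71 averaged 28.2 ± 8.76 CPM in mock Mpdes6fad5 and 8.10 ± 1.06 CPM in mock Tak-1 (SD, n = 3 each), a difference of 1.65 ± 0.17 (adjusted p = 1.22e-06 by limma). MpPOD92 averaged 31.6 ± 9.03 CPM in mock Mpdes6fad5 and 14.6 ± 1.65 CPM in mock Tak-1, a difference of 1.03 ± 0.18 (adjusted p = 0.000197 by limma). MpPOD94 averaged 3.40 ± 0.529 CPM in mock Mpdes6fad5 and 8.50 ± 1.77 CPM in mock Tak-1, a difference of -1.10 ± 0.22 (adjusted p = 0.000863 by limma). MpPOD99 averaged 6.72 ± 1.02 CPM in mock Mpdes6fad5 and 13.4 ± 3.08 CPM in mock Tak-1, a difference of -0.88 ± 0.19 (adjusted p = 0.00120 by limma). For these 4 genes the 3 libraries of one group lay wholly above or below those of the other, and the share of all genes for which this held was not counted. MpPOD61 averaged 6.35 ± 3.76 CPM in mock Mpdes6fad5 and 5.95 ± 1.14 CPM in mock Tak-1 and did not pass, at -0.02 ± 0.26. With 5 CPM added MpPOD94 was at -0.68. The spread of mock Mpdes6fad5 was wide for MpPOD61, MpPOD71 and MpPOD92, and without its replicate 1 the differences of MpPOD71 and MpPOD92 were 1.41 and 0.82.

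Against mock Mpcoi1, mock Mpdes6fad5 showed the same directions, with 4 of 5 genes passing where 32.8% of all genes passed. MpPOD71 differed by 1.68 ± 0.17 (adjusted p = 1.28e-06) and MpPOD92 by 1.03 ± 0.18 (adjusted p = 0.000237), both by limma. The lower level of MpPOD94, at -0.68 ± 0.22 (adjusted p = 0.0273 by limma), and of MpPOD99, at -0.52 ± 0.19 (adjusted p = 0.0425 by limma), was nearer the threshold. Both calls were lost when 0.1 CPM was added in place of 1 CPM, without the filter and on the deposited values. They were also lost without mock Mpcoi1 replicate 1 or 2 and without mock Mpdes6fad5 replicate 2 or 3, with MpPOD94 between -0.64 and -0.57, and with 5 CPM added MpPOD94 was at -0.40. The MpPOD99 call, at an adjusted p of 0.0425, was also lost without mock Mpcoi1 replicate 3, mock Mpdes6fad5 replicate 1, mock Tak-1 replicate 3, wounded Mpcoi1 replicate 1 or wounded Mpdes6fad5 replicate 2, with a mean of at least 5 CPM and with library totals, and its value ran from -0.58 to -0.40 over the libraries left out. Both comparisons share the mock Mpdes6fad5 libraries.

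In wounded plants the genes that passed between genotypes were MpPOD71 and MpPOD92. Between wounded Mpcoi1 and wounded Tak-1, where 22.8% of all genes passed, 1 of the 5 passed. MpPOD92 averaged 1.72 ± 0.237 CPM in wounded Mpcoi1 and 4.16 ± 1.34 CPM in wounded Tak-1 (SD, n = 3 each), a difference of -0.90 ± 0.18 (adjusted p = 0.00130 by limma). With voom it was -1.20 and just missed (adjusted p = 0.0514), and with 5 CPM added it was -0.44. The mock difference of MpPOD92 was 0.00, so this value nearly equals its difference of wound responses, which was not tested. Between wounded Mpdes6fad5 and wounded Tak-1, where 51.1% of all genes passed, 1 of the 5 passed. MpPOD71 averaged 3.21 ± 0.481 CPM in wounded Mpdes6fad5 and 1.25 ± 0.461 CPM in wounded Tak-1, a difference of 0.92 ± 0.17 (adjusted p = 0.000307 by limma), or 0.39 with 5 CPM added and 1.40 with voom. MpPOD94 averaged 0.635 ± 0.551 CPM in wounded Mpdes6fad5 and 1.28 ± 0.488 CPM in wounded Tak-1 and missed the threshold at -0.51 ± 0.22 (adjusted p = 0.0662 by limma). It passed at -0.77 without wounded Mpdes6fad5 replicate 3 (adjusted p = 0.00761 by limma) and at -0.66 without wounded Tak-1 replicate 2 (adjusted p = 0.0376 by limma).

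Between wounded Mpdes6fad5 and wounded Mpcoi1, where 48.9% of all genes passed, 2 of the 5 passed. MpPOD71 averaged 3.21 ± 0.481 CPM in wounded Mpdes6fad5 and 0.919 ± 0.0463 CPM in wounded Mpcoi1, a difference of 1.13 ± 0.17 (adjusted p = 3.93e-05 by limma), or 0.47 with 5 CPM added and 1.78 with voom. MpPOD92 averaged 3.43 ± 0.455 CPM in wounded Mpdes6fad5 and 1.72 ± 0.237 CPM in wounded Mpcoi1, a difference of 0.70 ± 0.18 (adjusted p = 0.00365 by limma). The MpPOD92 call was lost with quantile normalization (adjusted p = 0.0763) and with voom (adjusted p = 0.0724), and it was 0.33 with 5 CPM added.

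**Figure D3:**
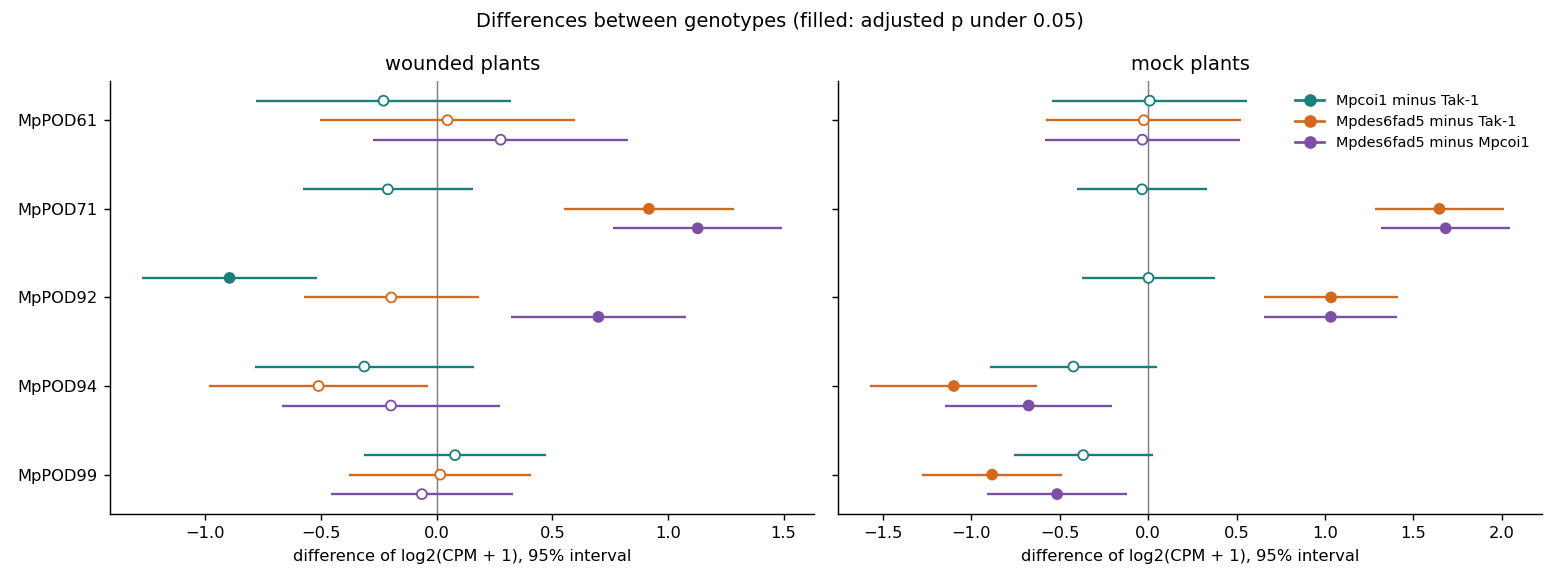
Differences between genotypes on the log2(CPM + 1) scale with 95% intervals, for wounded plants (left) and mock plants (right); filled points passed an adjusted p under 0.05. In mock plants Mpdes6fad5 is higher for MpPOD71 and MpPOD92 and lower for MpPOD94 and MpPOD99, while no point of Mpcoi1 minus Tak-1 is filled there.

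The spread between genotypes can be compared between treatments through the ratio of the highest to the lowest genotype mean. MpPOD99 had a ratio of 1.07 in wounded and 1.99 in mock plants, so that the genotype means were closer together in wounded than in mock plants. MpPOD71 had similar ratios, with 3.50 in wounded and 3.59 in mock plants. Its mock ratio was 2.94 without mock Mpdes6fad5 replicate 1 and 3.95 without mock Mpdes6fad5 replicate 3. The ratio was 2.41 in wounded and 2.17 in mock plants for MpPOD92, and 2.02 in wounded and 2.50 in mock plants for MpPOD94. Without wounded Mpdes6fad5 replicate 3 the wounded ratio of MpPOD94 was 4.05, above its mock ratio, and without wounded Tak-1 replicate 3 that of MpPOD99 was 1.48. For MpPOD61 it was 1.85 in wounded plants, on few reads, and 1.07 in mock plants. Ordered by level, the lower 3 of the 6 groups were the wounded ones for each gene. Neighbours in that order did not overlap between wounded and mock groups, between mock Mpdes6fad5 and the next mock group for MpPOD71, MpPOD92, MpPOD94 and MpPOD99, or at the wounded steps already named for MpPOD71 and MpPOD92, and all other neighbours overlapped.

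Differences between the wound responses of genotypes contain the contrast that chose the genes, so they are given with their 95% intervals and were not tested. In Mpcoi1 minus Tak-1, MpPOD92 was at -0.90 (-1.43 to -0.36) and the intervals of the other 4 genes held 0, from -0.24 for MpPOD61 to 0.45 for MpPOD99. Without wounded Tak-1 replicate 3 the MpPOD99 value was 0.71. In Mpdes6fad5 minus Tak-1, MpPOD92 was at -1.23 (-1.76 to -0.70) and MpPOD71 at -0.73 (-1.25 to -0.21), while MpPOD99 was at 0.90 (0.34 to 1.46), MpPOD94 at 0.59 (-0.08 to 1.26) and MpPOD61 at 0.07 (-0.71 to 0.85). The scale mattered for the weakly expressed genes: with 0.1 CPM added MpPOD71 was at -0.41 and MpPOD94 at 0.19. In Mpdes6fad5 minus Mpcoi1, MpPOD71 was at -0.55 (-1.07 to -0.04) and the intervals of the other 4 held 0. The MpPOD71 value was -0.03 with voom, -0.10 with 0.1 CPM added and -0.32 without mock Mpdes6fad5 replicate 1. A negative value here means a steeper fall in the first genotype named.

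Most tested genes of the family stood lower after wounding. Summed over all listed peroxidases, the level was 2267 ± 105 CPM in wounded and 3059 ± 82.9 CPM in mock Mpcoi1 (SD, n = 3 each). In Mpdes6fad5 it was 2643 ± 108 CPM in wounded and 3568 ± 235 CPM in mock plants. In Tak-1 it was 2953 ± 136 CPM in wounded and 3220 ± 210 CPM in mock plants, and wounded and mock libraries overlapped. Of the 116 tested peroxidases outside the 5, 83 fell and 4 rose in Mpcoi1, with a median of -0.81, where 28.5% of all genes fell and 24.5% rose. In Mpdes6fad5 83 fell and 8 rose, with a median of -0.95, where 28.9% of all genes fell and 28.1% rose. In Tak-1 90 fell and 4 rose, with a median of -0.85, where 30.6% of all genes fell and 26.0% rose. The medians over all tested genes were -0.05, -0.03 and -0.06 in Mpcoi1, Mpdes6fad5 and Tak-1. A further 43 listed peroxidases did not pass the filter on low values and are in none of these counts. Near-identical copies in a family of this size may share or split reads, and as strand is not stated, reads from antisense transcripts cannot be told apart.

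Among the steepest falls outside the 5 in Tak-1 were those of MpPOD90, MpPOD119 and MpPOD96. MpPOD90 averaged 5.43 ± 1.37 CPM in wounded and 24.6 ± 3.02 CPM in mock Tak-1 (SD, n = 3 each), a change of -2.01 ± 0.17 (adjusted p = 9.28e-09 by limma). MpPOD119 changed by about the same amount in each genotype, by -1.58 in Mpcoi1, -1.64 in Mpdes6fad5 and -1.80 in Tak-1, each ± 0.12. MpPOD96 changed by -2.06 in Mpcoi1, -3.20 in Mpdes6fad5 and -1.83 in Tak-1, each ± 0.18.

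The 4 peroxidases that rose in Tak-1 were MpPOD148, MpPOD161, MpPOD164 and MpPOD18. MpPOD148 averaged 218 ± 34.0 CPM in wounded and 46.0 ± 5.94 CPM in mock Tak-1 (SD, n = 3 each), and it rose by 2.40 in Mpcoi1, 1.76 in Mpdes6fad5 and 2.22 in Tak-1, each ± 0.13. MpPOD161 rose by 1.59 in Mpcoi1, 2.02 in Mpdes6fad5 and 1.69 in Tak-1, each ± 0.27. MpPOD164 averaged 730.3 ± 148 CPM in wounded and 298 ± 12.2 CPM in mock Tak-1 and was at 0.04 ± 0.14 in Mpcoi1 (adjusted p = 0.833 by limma), while it rose by 0.55 in Mpdes6fad5 and 1.27 in Tak-1, each ± 0.14. MpPOD18 rose by 3.05 in Mpcoi1, 1.27 in Mpdes6fad5 and 1.15 in Tak-1, each ± 0.18. The fourth riser in Mpcoi1 was MpPOD1, at 0.29 ± 0.11, named after its value was seen.

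The other 116 peroxidases were not chosen by their responses, so response differences between genotypes were counted for them. Between Mpcoi1 and Tak-1, 4 of 116 passed where 7.57% of all genes did: MpPOD164 at -1.23 and MpPOD169 at -0.83, and MpPOD90 at 0.87 and MpPOD18 at 1.90. Between Mpdes6fad5 and Tak-1, 28 passed where 14.8% of all genes did, 22 of them with a more negative response in Mpdes6fad5, as for MpPOD92 and MpPOD71, and 6 with a less negative or more positive one. Between Mpdes6fad5 and Mpcoi1, 20 passed where 18.3% of all genes did, 14 of them more negative in Mpdes6fad5. In mock plants 38 of the 116 (32.8%) were higher and 29 (25%) lower in Mpdes6fad5 than in Tak-1, where 17.5% of all genes were higher and 20.4% lower. Likewise 16 (13.8%) were higher and 18 (15.5%) lower in Mpcoi1 than in Tak-1, where 2.10% of all genes were higher and 4.56% lower, so that both directions seen among the 5 genes occurred in the rest of the family. The filter on low values could be met through mock Mpdes6fad5 alone. MpPOD13 averaged 6.61 CPM there and at most 0.707 CPM in the other groups, and MpPOD5 2.27 CPM and at most 0.421 CPM. For such genes the filter itself favoured a higher mock level and a steeper fall in Mpdes6fad5, so the Mpdes6fad5 counts are descriptions. How many of the 116 entered that way was not counted. The added 1 CPM also shapes these counts at low levels. MpPOD158, among the 22, averaged 2.38 CPM in wounded and 5.40 CPM in mock Mpdes6fad5, and 0.109 and 0.452 CPM in Tak-1. MpPOD81, among the 6, averaged 0.0634 and 0.474 CPM in Mpdes6fad5, and 1.35 and 5.53 CPM in Tak-1. As a share of the mock mean, MpPOD158 fell further in Tak-1 and MpPOD81 further in Mpdes6fad5.

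Of the 164 listed peroxidases 79 have identifiers on chromosome 5, of which 61 were tested. Without the 5 genes, 53 of the remaining 56 fell in Tak-1 and 0 rose, with a median of -1.22. Off chromosome 5, 37 of 60 fell and 4 rose, with a median of -0.56. The difference between chromosomes was not tested. All 5 genes thus come from the chromosome that holds the most peroxidases, and which was the lowest by median.

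Each of the 5 genes has other peroxidases close by in the order of identifiers. Within 10 places lay 15 other peroxidase genes, of which 10 were tested and MpPOD62, MpPOD72, MpPOD74, MpPOD95 and MpPOD97 were too low. In Tak-1 9 of the 10 fell and 0 rose, in Mpcoi1 9 fell and in Mpdes6fad5 8 fell. The exception in all genotypes was MpPOD89, at 0.46 in Mpcoi1, 0.75 in Mpdes6fad5 and -0.16 in Tak-1, each ± 0.65, and in Mpdes6fad5 MpPOD88 was at -0.17 ± 0.22 as well.

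Neighbours did not follow one pattern across genotypes. MpPOD60, 8 places before MpPOD61, averaged 25.5 ± 6.87 CPM in mock Mpdes6fad5 and 7.80 ± 1.27 CPM in mock Tak-1 (SD, n = 3 each), a difference of 1.57 ± 0.16 (adjusted p = 6.37e-07 by limma), whereas MpPOD61 was at -0.02 in that comparison. Its response was also more negative in Mpdes6fad5 than in Tak-1, by -1.23 ± 0.22 (adjusted p = 0.00127 by limma). MpPOD96, 2 places after MpPOD94, was higher in Mpdes6fad5 than in Tak-1 mock plants by 0.89 ± 0.18 (adjusted p = 0.000936 by limma), where MpPOD94 was lower. MpPOD90 and MpPOD91, the 2 genes before MpPOD92, differed in mock plants, Mpdes6fad5 minus Tak-1, by -1.30 ± 0.17 and -0.70 ± 0.21 (adjusted p = 9.47e-06 and 0.0116 by limma), where MpPOD92 was higher. MpPOD93, the gene before MpPOD94, had 21.1, 21.0 and 21.2 CPM as wounded means and 52.0, 56.4 and 52.8 CPM as mock means of Mpcoi1, Mpdes6fad5 and Tak-1, and it differed between no pair of genotypes in either treatment.

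**Figure D4:**
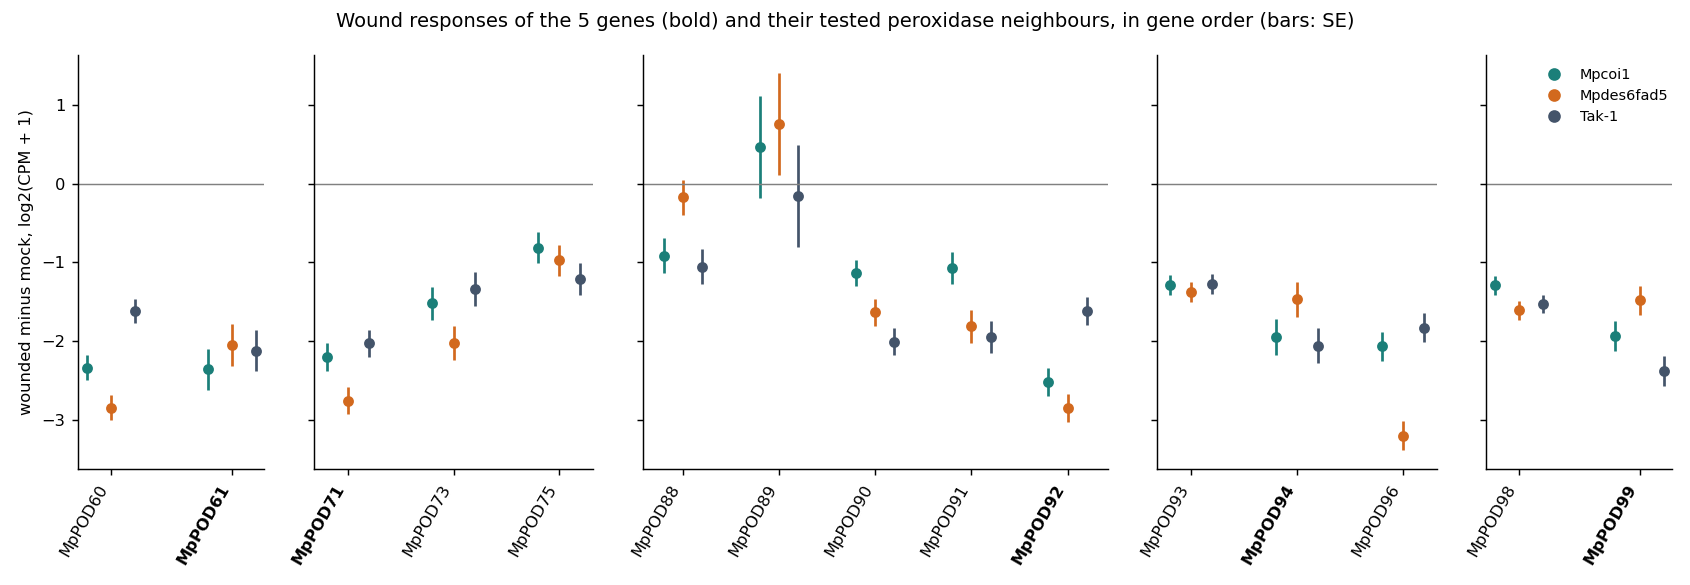
Wound responses on the log2(CPM + 1) scale, with standard errors as bars, of the 5 genes (bold) and the 10 tested peroxidases within 10 places of them, in gene order and by genotype. All neighbours but MpPOD89 lie below 0, and MpPOD60 and MpPOD96 are lower in Mpdes6fad5 than in Tak-1.

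For each gene the 3 tested genes with the most similar profile were taken by Pearson's r of log2(CPM + 1) over the 18 libraries, a value that mainly reflects the separation of wounded from mock libraries. MpPOD61 was nearest to MpCSLD2 (r = 0.963), to Mp1g09890 and to MpCSLD5 (r = 0.962); CSLD genes encode cellulose synthase-like proteins. MpPOD71 was nearest to Mp5g12100 (r = 0.991), Mp5g16430 and Mp4g16810. MpPOD92 was nearest to Mp8g03270 (r = 0.993), to MpPOD47 (r = 0.990), another class III peroxidase, and to Mp5g16350. MpPOD94 was nearest to Mp2g11750 (r = 0.970), Mp2g24300 and Mp3g18450. MpPOD99 was nearest to MpIDS2 (r = 0.976), to MpPAL1 (r = 0.972), which encodes a phenylalanine ammonia-lyase, the entry enzyme of phenylpropanoid synthesis, and to MpGH16.31 (r = 0.971), a glycoside hydrolase gene.

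Enzymes that make or remove the peroxidase substrate hydrogen peroxide moved in both directions. Of 20 tested genes, 8 rose and 4 fell in Mpcoi1, 9 rose and 5 fell in Mpdes6fad5, and 8 rose and 3 fell in Tak-1, with medians of 0.06, 0.18 and -0.01. For this and the next lists the shares of all tested genes were 24.5% higher and 28.5% lower in Mpcoi1, 28.1% and 28.9% in Mpdes6fad5, and 26.0% and 30.6% in Tak-1. The hydrogen peroxide list had 40% higher and 20% lower in Mpcoi1, 45% and 25% in Mpdes6fad5, and 40% and 15% in Tak-1. The catalase gene MpCAT1 averaged 15.8 ± 0.705 CPM in wounded and 0.0651 ± 0.0805 CPM in mock Tak-1 (SD, n = 3 each) and rose by 5.01 in Mpcoi1, 4.72 in Mpdes6fad5 and 3.98 in Tak-1, each ± 0.10. Its mock mean was 0.0135 CPM in Mpcoi1 and 0.199 CPM in Mpdes6fad5. The means of mock Mpcoi1 and mock Tak-1 were under the limit that a count of 0 allows. Every mock mean was far below the added 1 CPM, so the sizes in all genotypes depend on it. MpSOD3, a superoxide dismutase gene, rose by 2.24 ± 0.09 in Tak-1, MpPRX1 by 1.63 ± 0.07 and the ascorbate peroxidase gene MpAPX3 by 1.19 ± 0.07. The 3 that fell in Tak-1 were MpAPX4 at -0.66, MpPRX3 at -0.44 and MpGPX2 at -0.29, which also fell in both mutants; MpPRX4 fell in both mutants and MpSOD5 in Mpdes6fad5. These fallers were named after their values were seen.

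Genes for the phenolic substrates were counted next. Of 18 tested phenylpropanoid genes, 3 rose and 6 fell in Mpcoi1, 8 rose and 5 fell in Mpdes6fad5, and 6 rose and 7 fell in Tak-1, with medians of -0.13, 0.20 and 0.24. These counts are 16.7% higher and 33.3% lower in Mpcoi1, 44.4% and 27.8% in Mpdes6fad5, and 33.3% and 38.9% in Tak-1, so that the share that fell in Mpdes6fad5 was near that of all genes. The coumarate ligase gene Mp4CL1 rose by 3.36 in Mpcoi1, 3.51 in Mpdes6fad5 and 4.20 in Tak-1, each ± 0.06. Mp4CL2 rose by 2.02 in Mpdes6fad5 and 2.68 in Tak-1 and fell by 0.50 in Mpcoi1, each ± 0.09. MpPAL7, at 20.7 ± 19.8 CPM in wounded and 4.63 ± 3.44 CPM in mock Tak-1 (SD, n = 3 each), rose by 1.87 ± 0.52 and MpPAL-like2 by 1.51 ± 0.19 in Tak-1. The other riser in Mpcoi1 beside Mp4CL1 and MpPAL-like2 was MpPAL10, at 0.32 ± 0.11, and the 5 that fell in Mpdes6fad5 were MpPAL1, MpPAL9, MpC4H3, MpCOMT and MpHCT, all named after their values were seen.

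Dirigent and polyphenol oxidase genes act on the same phenolics, dirigent proteins by guiding the coupling of phenolic radicals. Of 82 tested, 15 rose and 35 fell in Mpcoi1, 31 rose and 15 fell in Mpdes6fad5, and 30 rose and 26 fell in Tak-1, with medians of -0.25, 0.14 and 0.08. These counts are 18.3% higher and 42.7% lower in Mpcoi1, 37.8% and 18.3% in Mpdes6fad5, and 36.6% and 31.7% in Tak-1. MpDIR39 averaged 267 ± 35.7 CPM in wounded and 2.26 ± 0.189 CPM in mock Tak-1 (SD, n = 3 each) and rose by 0.56 in Mpcoi1, 4.89 in Mpdes6fad5 and 6.36 in Tak-1, each ± 0.16. MpPPO31, MpDIR61 and MpDIR65 rose by 4.22 ± 0.19, 3.89 ± 0.17 and 3.31 ± 0.22 in Tak-1, and no read of these 3 genes was found in any Mpcoi1 library.

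Those markers of oil body cells, a secretory cell type of liverworts, that had values were lower after wounding too. All 3 of MpSYP12B, MpERF13 and MpABCG1 fell in each genotype, by 0.36 to 0.80 on the log2 scale, and none was at 0. The planned oil body markers MYB2 and TGA and the planned rhizoid markers RSL1, RSL2 and RHD6 have no values here. Their summed level was 16.3 to 17.8 CPM in wounded and 24.9 to 25.7 CPM in mock Mpcoi1, 22.7 to 23.9 CPM in wounded and 33.8 to 37.2 CPM in mock Mpdes6fad5, and 18.8 to 19.4 CPM in wounded and 24.6 to 30.3 CPM in mock Tak-1. Of 2 male germline genes MpDUO1 rose in each genotype, while MpGEX2 rose by 0.42 in Mpdes6fad5, fell by 0.55 in Tak-1 (adjusted p = 0.0120 and 0.00169 by limma) and was at -0.05 in Mpcoi1. Their summed level was 6.14 to 9.70 CPM in wounded and 3.61 to 3.96 CPM in mock Mpcoi1, 8.70 to 12.3 CPM in wounded and 4.68 to 5.18 CPM in mock Mpdes6fad5, and 4.70 to 8.18 CPM in wounded and 4.01 to 5.84 CPM in mock Tak-1. The part of either cell type in the peroxidase values was not tested.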

How the data were processed

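RNA was sequenced from 18 libraries, 3 in each of 6 groups. Per the submitters' processing notes, Trim Galore, HISAT2, HTSeq and edgeR were used, without stated versions; no source used here gives the genome build, strand or settings. The deposited values are log2 CPM with a prior, sharing a floor of -3.50 (0.0886 CPM) in the authors' table. Here 2 was raised to each value and the floor subtracted; all values up to 1000 reads came out as whole reads within 0.01. A count model was not run. The main model was limma 3.58.1 in R 4.3.3 on log2(CPM + 1), with 6 group means, eBayes with a mean trend and genes with at least 1 CPM in at least 3 libraries. The model was tested on simulated data. Python 3.11.15, pandas 2.3.3, numpy 2.4.6 and matplotlib 3.10.9 did the rest. With 3 libraries per group, SD and SE are themselves imprecise, and the limit of 3 reads covers counting error only.

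Alternatives were other constants, filters, scalings, voom, robust eBayes, fits of the groups compared, a replicate block and each library left out. The main model did not pair libraries by replicate number. Correlations of deviations between same-numbered wounded and mock libraries ran from -0.334 to 0.062, and between differently numbered ones they reached 0.318. As deviations from means of 3 libraries, these values cannot exclude a batch shared by replicate number.

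The members, the lists, the tests and the alternatives were chosen with earlier results of these data known. Symbols came from a table of the MpTak2_v7.1 assembly, which matched 17641 identifiers, 3091 of them with a symbol. Named genes were the 5, the peroxidases within 10 places of each, the 3 genes most like each by Pearson's r, the 5 lowest and up to 5 highest other peroxidases in Tak-1, and up to 4 genes of each further list with the largest change in Tak-1. A rule on protein identity and a motif search needed sequences that were not used here.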

Additional observations from a re-analysis of the deposited data

Results flagged for a closer look

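Wound responses of other class III peroxidases differed between genotypes, by the limma test of the difference itself with adjusted p under 0.05. Between Mpcoi1 and Tak-1 this held for 4 of 116: MpPOD164 at -1.23 ± 0.19 and MpPOD169 at -0.83 ± 0.18, MpPOD90 at 0.87 ± 0.24 and MpPOD18 at 1.90 ± 0.25 (Mpcoi1 minus Tak-1, log2 scale). MpPOD169 averaged 7.10 ± 0.517 CPM in wounded and 13.3 ± 1.76 CPM in mock Mpcoi1, and 9.81 ± 2.18 CPM in wounded and 9.56 ± 0.739 CPM in mock Tak-1 (SD, n = 3 each). Between Mpdes6fad5 and Tak-1 a difference held for 28, and between Mpdes6fad5 and Mpcoi1 for 20. In this order the shares of the 116 were 3.45%, 24.1% and 17.2%, where 7.57%, 14.8% and 18.3% of all genes passed. Only Mpdes6fad5 against Tak-1 was thus above the share of all genes. Some of those genes could pass the filter on low values through mock Mpdes6fad5 alone, and at low levels the differences depend on the added 1 CPM. MpPOD90 lies 2 places before MpPOD92, whose own difference was -0.90 and was not tested. Groups of 3 are too small for a check of single outlying libraries.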

How the results depend on the processing

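Every wound response of the 5 genes kept its sign in each alternative that gave a value. This is a description only, because the falls chose the genes. Of the 116 other peroxidases, 52 fell in Mpcoi1, 48 in Mpdes6fad5 and 51 in Tak-1 with a mean of at least 5 CPM, which tests fewer genes; that filter left MpPOD61 and MpPOD94 without a value. Counts of the 5 genes that passed changed as follows, and the cause was not tested. Mock Mpdes6fad5 minus mock Mpcoi1 gave 2 with 0.1 CPM added, without a filter, with a mean of at least 5 CPM and on the deposited values, and 2 to 4 with 1 library left out. Wounded Mpcoi1 minus wounded Tak-1 gave 0 with voom. Wounded Mpdes6fad5 minus wounded Tak-1 gave 2 with 0.1 CPM added, with quantile normalization and on the deposited values, and 1 to 2 with 1 library left out. Wounded Mpdes6fad5 minus wounded Mpcoi1 gave 1 with quantile normalization and with voom.

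Uncalled differences near 0 changed sign. MpPOD92 in mock Mpcoi1 minus mock Tak-1 was -0.0044 with median-of-ratios rescaling. MpPOD61 in mock Mpdes6fad5 minus mock Tak-1 was 0.0073 with 5 CPM added and 0.097 with library totals, and against mock Mpcoi1 it was 0.00063 and 0.060. With quantile normalization MpPOD61 was -0.19 in wounded Mpdes6fad5 minus wounded Tak-1 and -0.037 against wounded Mpcoi1. MpPOD99 in wounded Mpdes6fad5 minus wounded Tak-1 was -0.0051 with 5 CPM added, -0.0099 with median-of-ratios rescaling and -0.20 with quantile normalization. With 1 library left out, mock Mpcoi1 minus mock Tak-1 ran from -0.13 to 0.17 for MpPOD61, -0.098 to 0.058 for MpPOD71 and -0.089 to 0.065 for MpPOD92. MpPOD61 in mock Mpdes6fad5 ran from -0.41 to 0.27 against mock Tak-1 and -0.42 to 0.26 against mock Mpcoi1. MpPOD99 in wounded Mpcoi1 minus wounded Tak-1 ran from -0.069 to 0.34. Wounded Mpdes6fad5 minus wounded Tak-1 ran from -0.11 to 0.20 for MpPOD61, -0.33 to 0.0064 for MpPOD92 and -0.13 to 0.28 for MpPOD99.

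With the replicate block, 4 of the 5 genes passed in mock Mpdes6fad5 minus mock Tak-1 and 85 other peroxidases fell in Mpcoi1; the block moved no count of calls by over 1.5 times. Quantile normalization and library totals moved the median wound response of all genes in Tak-1 to -0.14 and -0.15, from -0.06 in the main model. Depth limits wounded MpPOD61 and MpPOD94 most, at 6 to 41 reads per library. Alternatives for protein identity and for the motif search were not run.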
